A study of Drosophila melanogaster with 3 samples.

Results

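The 10 genes described here encode the ligands, receptors, nuclear effectors and a feedback inhibitor of fibroblast growth factor (FGF) and epidermal growth factor (EGF) receptor signalling in Drosophila melanogaster. They were taken by symbol from the Ensembl BDGP6.54 annotation, out of 13968 protein-coding genes and 18277 genes in all. The ligands are bnl, pyr, ths and spi, the receptors are btl, htl and Egfr, the nuclear effectors are pnt and aop, and the feedback inhibitor is sty. The data are chromatin immunoprecipitation sequencing (ChIP-seq) peak lists from whole embryos of mixed sex, aged 0 to 18 h, of 1 transgenic line in which the CG12219 protein ends in a fused green fluorescent protein (GFP). There were 3 biological replicates of this 1 group, each a pool of embryos of both sexes, and no untagged embryos or mock immunoprecipitation were used here. A free-text label calls the samples input controls, whereas the assay title, the antibody field and the peak lists describe immunoprecipitates, as which they are treated here. The driver of the tagged protein is not given in the sources used here, embryos of all these ages and cell types are mixed, and the cells behind a peak cannot be told apart. With no second condition there is no test between groups, so members are described by counts and ranks beside the same counts over all protein-coding genes.

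FGF and EGF receptor signalling passes from secreted ligands through receptor tyrosine kinases and the Ras and MAP kinase cascade to the nucleus. Bnl attracts tracheal branches through the receptor Btl, while Pyr and Ths act on the receptor Htl in the mesoderm. Spi is the most widely used ligand of Egfr in the embryo. In the nucleus the ETS factor Pnt activates target genes and the ETS factor Aop, also known as Yan, represses them. Sty, the fly Sprouty, is made in response to the pathway and restrains it.

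CG12219-GFP peaks lay at 8 of the 10 genes, and most of them lay in introns or upstream of the gene and not at its promoter. A gene was given a peak when the summit was within 500 bp of one of its transcription start sites (TSS), inside the gene, or had one of its TSS as the nearest. In the list that passed the irreproducible discovery rate (IDR) step, 32 of 4187 summits met 1 or more of these 3 relations. Ranks below are by the authors' signal value, with 1 the highest of 4187. At each member the IDR summits equalled in number its calls among the 4187 highest of the list pooled over the replicates. The best ranks were also the same in both lists. A place in the IDR list does not mean a call among the 4187 highest of every replicate, which 17 of the 32 had. The reference sequence of the summit base and 50 bp on each side is given below for the highest-ranked IDR summit of 6 of the genes, in dm6 coordinates from the RefSeq genome, because these are the peaks that lead the account of each gene below. Sequences of ths and Egfr are not shown. Each is written 5′ to 3′ on the strand of its gene, which is the minus strand for all of them, and capitals mark GAGAG and CACACA on either strand.
spi rank 285 (chr2L:19575715-19575815): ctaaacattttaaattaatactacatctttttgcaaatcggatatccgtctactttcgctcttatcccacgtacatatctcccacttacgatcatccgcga
aop rank 462 (chr2L:2180194-2180294): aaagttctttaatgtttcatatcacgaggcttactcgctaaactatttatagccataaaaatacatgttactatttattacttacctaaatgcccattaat
pnt rank 478 (chr3R:23326460-23326560): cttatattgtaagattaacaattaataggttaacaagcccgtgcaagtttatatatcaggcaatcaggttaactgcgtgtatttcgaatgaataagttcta
sty rank 731 (chr3L:3432813-3432913): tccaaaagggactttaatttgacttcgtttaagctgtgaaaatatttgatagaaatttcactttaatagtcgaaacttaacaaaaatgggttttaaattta
bnl rank 1613 (chr3R:19831121-19831221): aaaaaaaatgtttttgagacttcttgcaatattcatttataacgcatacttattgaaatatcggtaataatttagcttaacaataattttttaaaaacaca
htl rank 2983 (chr3R:18049659-18049759): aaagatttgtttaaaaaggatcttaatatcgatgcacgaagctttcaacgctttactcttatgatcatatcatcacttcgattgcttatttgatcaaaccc
None of these 6 windows holds either motif, and none has under 60% A+T. A second set, from 3 promoter peaks of bnl and pnt, is shown because each holds GAGAG at an A+T share under 50%, and because the same peaks ranked higher in replicate 1 than in replicates 2 and 3.
bnl rank 2002 (chr3R:19836883-19836983): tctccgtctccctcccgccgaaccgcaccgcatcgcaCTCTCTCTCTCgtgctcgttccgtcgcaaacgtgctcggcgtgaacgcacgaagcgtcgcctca
pnt rank 2904 (chr3R:23295452-23295552): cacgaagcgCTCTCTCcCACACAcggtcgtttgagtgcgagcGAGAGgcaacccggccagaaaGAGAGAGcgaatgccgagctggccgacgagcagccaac
pnt rank 3336 (chr3R:23314458-23314558): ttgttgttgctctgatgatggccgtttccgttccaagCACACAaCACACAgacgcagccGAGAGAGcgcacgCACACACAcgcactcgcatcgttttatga
The A+T share of these 3 windows was 34.7%, 36.6% and 46.5%, against 62.4% to 79.2% in the first 6. This contrast follows from the choice of windows under 50% A+T and does not describe promoter peaks in general. The first 6 include the promoter peaks of spi rank 285 and htl rank 2983. The promoter peaks of spi rank 1486 (48.5% A+T), spi rank 1955 (73.3%) and Egfr rank 4076 (57.4%) hold no GAGAG either.

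Of the 10 genes, 5 had an IDR summit within 500 bp of a TSS (bnl, spi, htl, Egfr and pnt), beside 14.3% of all protein-coding genes. A summit lay inside 8 of the 10, beside 11.9% of protein-coding genes, and 8 of the 10 had the TSS nearest to a summit, beside 17.6%. By any of the 3 relations the count was 8 of 10, beside 22.3%. The exceptions were pyr and btl, an FGF ligand and an FGF receptor that are not each other's partner. Of the 32 summits, 23 were intronic, 8 were upstream of the gene and 1 was in a 5′ UTR. Summits within 500 bp of the gene's own TSS numbered 8 of 32, or 25.0%. Counted at a TSS of any gene they numbered 9 of 32, beside 43.3% of all IDR summits. Members' summits could be taken by lying inside a long gene, and no such share was computed for summits in long genes alone. The summits just inside the 500 bp limit lay 378 bp and 340 bp upstream of spi TSS and 343 bp upstream of an htl TSS, and those just outside lay 559 bp upstream of a sty TSS and 813 bp upstream of an aop TSS. When each gene was given its most 5′ TSS alone, the count at a TSS was 2 of 10, bnl and Egfr, beside 12% of protein-coding genes, a share near the background.

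**Figure D1:**
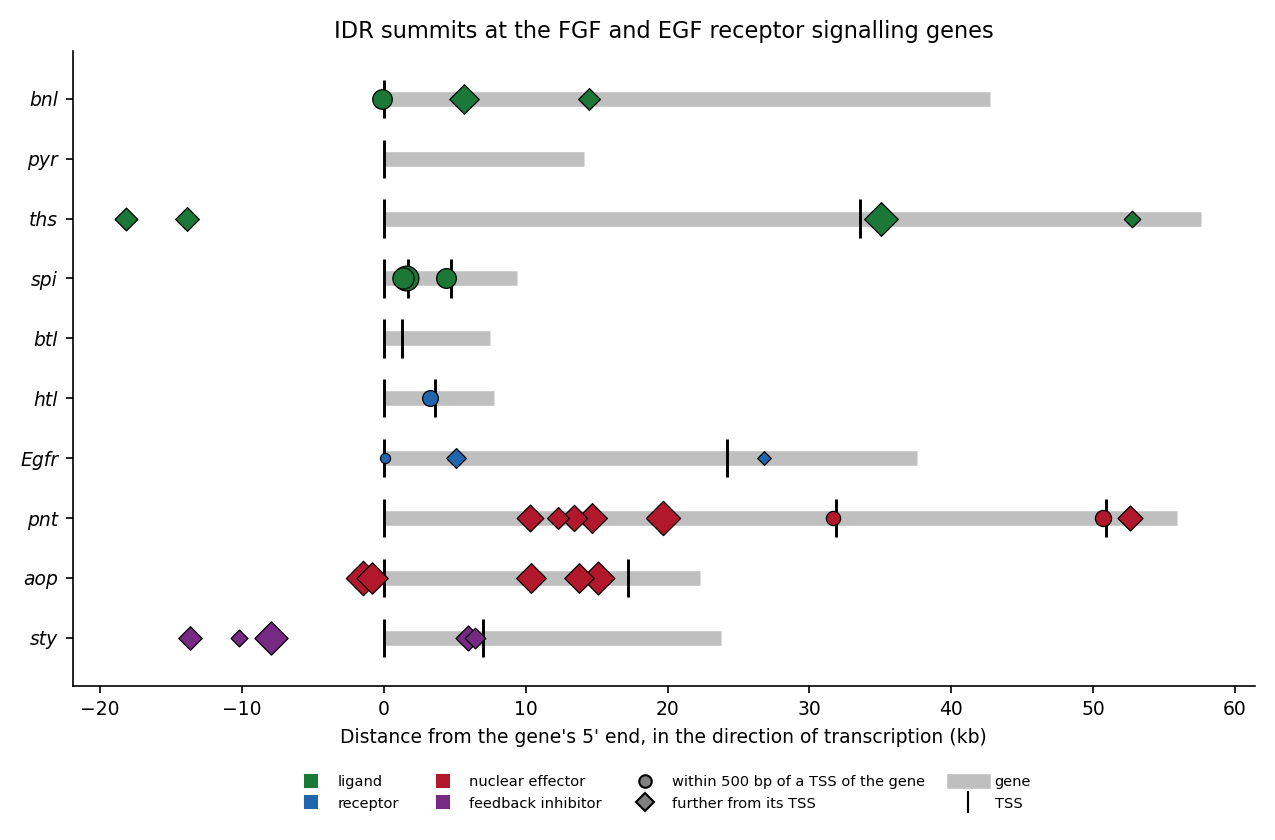
Positions of the 32 IDR summits along the 10 genes, in kb from each gene's 5′ end in the direction of transcription (the grey bar is the gene, black ticks are its TSS). Circles are summits within 500 bp of a TSS of the gene and diamonds are the others, larger symbols rank higher in the IDR list, colours give the role, and pyr and btl have none.

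Among the ligands, spi (chr2L:19567900-19577315, minus strand) carried the highest-ranked peak of all 10 genes, and it was a promoter peak. Its summit ranked 285 in the IDR list and lay 178 bp upstream of the start of spi-RG, inside intron 1 of the longer transcripts. It ranked 590, 254 and 217 in replicates 1, 2 and 3, so it stood among the top calls of every replicate. Another spi summit lay 200 bp further upstream, 378 bp from the same TSS, with IDR rank 1486. Its replicate ranks were 1399, 1488 and 217, but the call in replicate 3 is the same call that serves the stronger summit, so replicate 3 gives 1 call for both. The remaining spi summit ranked 1955, lay 340 bp upstream of spi-RB and spi-RE, and ranked 3015, 1358 and 3229 in the replicates. The spi gene is 9.4 kb long, and all 3 summits lay both inside it and at its promoters. This gave a density of 3.19 summits inside per 10 kb, the highest among the 10 genes. The density counts the summits of ranks 285 and 1486 separately. They lie 200 bp apart, and fragments were 200 to 800 bp long per the labels. Whether they are 1 site was not tested.

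The FGF ligand gene bnl (chr3R:19794073-19836817, minus strand), which guides tracheal branching, had a promoter peak and a pair of intronic peaks in a gene of 42.7 kb with 1 TSS. The highest was in intron 1, 5646 bp into the gene, with IDR rank 1613 and replicate ranks 1817, 1956 and 1370, which lie close together. The promoter summit, 116 bp upstream of the TSS, had IDR rank 2002 and replicate ranks 758, 2851 and 3469. The summit in intron 2, 14451 bp into the gene, had IDR rank 3076 and replicate ranks 1518, 5539 and 3489. The promoter and intron 2 peaks thus stood higher in replicate 1 than in the other replicates, and the intron 1 peak did not.

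The mesodermal FGF ligand genes ths (chr2R:11756817-11814424, plus strand) and pyr (chr2R:11712263-11726345, plus strand) are neighbours, with 30471 bp between the end of pyr and the start of ths, and they differed in these lists. In ths, a gene of 57.6 kb, the summit of IDR rank 633 lay in intron 1, 1505 bp downstream of the start of ths-RA, and ranked 586, 711 and 541 in the replicates. A further ths summit of IDR rank 3823 lay in intron 3, with the TSS of CG13192 as its nearest, and ranked 4741, 4421 and 5317, outside the top calls of every replicate. The other ths summits lay between these genes, 13877 bp and 18142 bp upstream of ths and 16595 bp and 12330 bp beyond the end of pyr. Their IDR ranks were 2745 and 2910. The first of them ranked 7542, 2707 and 2451 in the replicates and the second 9114, 2417 and 3439, both low in replicate 1. They were given to ths by the nearest TSS, and distance alone does not say which gene they belong to. The gene pyr had no IDR summit, and its highest pooled call, 23 bp downstream of its TSS in the 5′ UTR, ranked 5987, outside the 4187 highest calls. That position ranked 5111, 17084 and 3171 in the replicates, so replicate 3 alone placed it among its top 4187 calls.

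Of the 4 roles, the receptors had the fewest peaks as a raw count and the lowest median rank. Their 4 IDR summits had a median rank of 3723 and a best rank of 2983. Of the 4, 0 stood among the top 4187 calls of all 3 replicates, beside 57.9% of all IDR summits. The roles differ in the number and length of their genes. Inside the gene, htl had 1.29 and Egfr 0.8 summits per 10 kb, above bnl with 0.47 and ths with 0.35 and below spi with 3.19, and btl and pyr had none. The heartless receptor gene htl (chr3R:18045216-18052984, minus strand), needed for the spreading of the mesoderm, had 1 summit, 343 bp upstream of htl-RA and htl-RC and inside intron 1 of the longer transcript. It had IDR rank 2983 and ranked 12953, 2193 and 4194 in the replicates, so replicate 2 alone held it among its top calls. Egfr (chr2R:21522420-21559977, plus strand) had a summit in the 5′ UTR, 80 bp downstream of its most 5′ TSS, with IDR rank 4076 and replicate ranks 2431, 4966 and 5896. In its intron 1 of 31587 bp lay a summit of IDR rank 3371, 5096 bp from the TSS, with replicate ranks 13845, 3216 and 3631. The last Egfr summit lay 2557 bp downstream of the start of Egfr-RB, with IDR rank 4141 and replicate ranks 8952, 4433 and 4386. The nearest TSS of the rank 3371 summit belongs to lncRNA:CR44725, which lies inside Egfr. The tracheal receptor gene btl (chr3L:14075772-14083229, plus strand) had no IDR summit, and its highest pooled call, in an intron 2258 bp from a TSS, ranked 19550. It had no counterpart in replicates 1 and 2 and ranked 8491 in replicate 3. The highest btl calls of replicates 1 and 2 were other calls, with ranks 12663 and 16641. All 3 Egfr summits and the htl summit thus ranked below the median rank of 2094 of the IDR list.

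**Figure D2:**
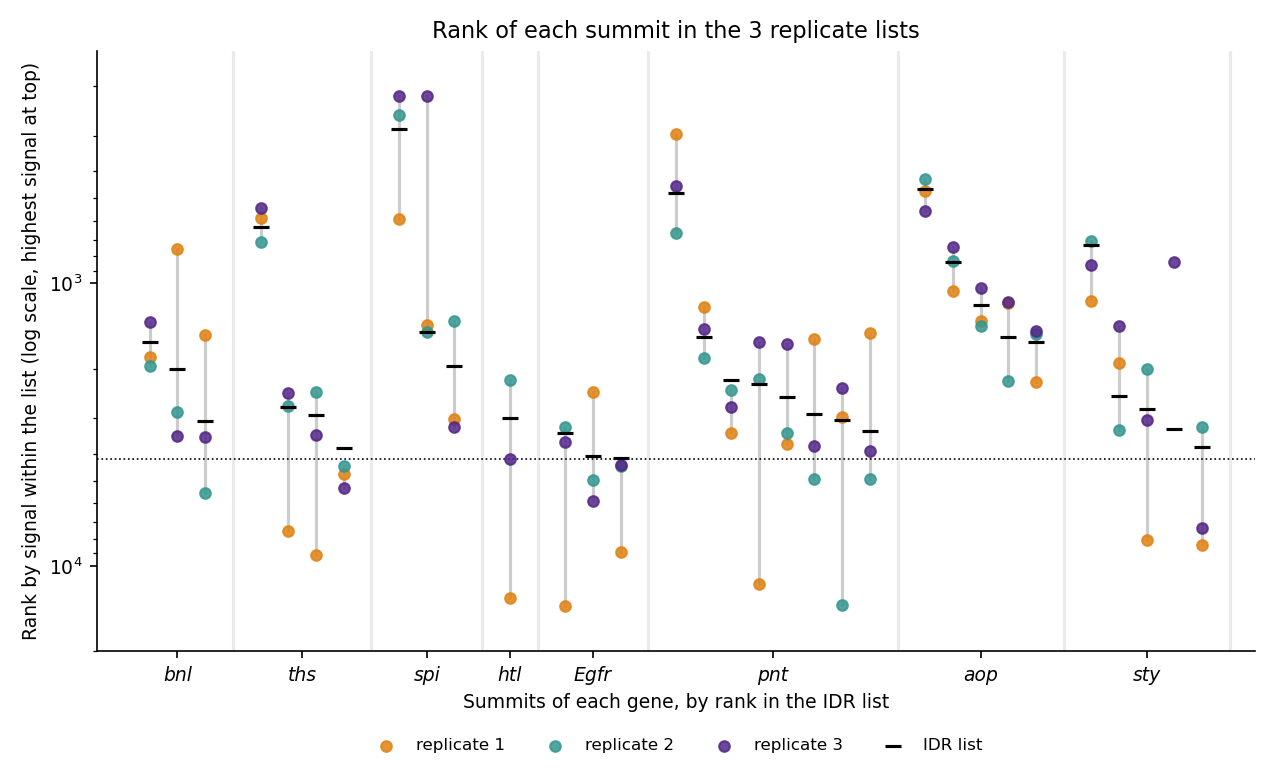
Rank by signal of each of the 32 IDR summits in the 3 replicate lists (coloured points, within 250 bp of the summit) and in the IDR list (black bars), on a log axis with the highest signal at the top. The dotted line marks rank 4187; the aop points all lie above it, and the htl and Egfr points straddle it.

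The 2 nuclear effectors held the largest share of the summits, 13 of 32, with 8 at pnt and 5 at aop. Their median rank was 1608, beside 2094 for the whole IDR list. Of the 13, 9 stood among the top calls of all 3 replicates, beside 57.9% of all IDR summits. The repressor gene aop (chr2L:2156484-2178754, minus strand) had 5 summits, all 5 in the top calls of every replicate, and none within 500 bp of a TSS. The strongest lay 1490 bp upstream of the gene, with IDR rank 462 and replicate ranks 471, 427 and 555, the closest agreement among its peaks in absolute rank. A second upstream summit, at 813 bp, had IDR rank 1194 and replicate ranks 1362, 1410 and 1037. The other 3 lay in intron 1, 2127 bp, 3453 bp and 6853 bp upstream of the inner start of aop-RA and aop-RD. At 2127 bp the IDR rank was 840 and the replicate ranks were 1066, 834 and 742. At 3453 bp they were 1608 and 2229, 1508 and 1470, and at 6853 bp they were 1552 and 1176, 2217 and 1162. At the TSS itself the best pooled call, 25 bp downstream of the inner start, ranked 4912.

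The activator gene pnt (chr3R:23290231-23346167, minus strand) had 8 summits inside its 55.9 kb, the most of the 10 genes, and 23 protein-coding genes had at least as many by any relation, pnt included. The strongest lay in intron 3 of its longest transcript, 12195 bp upstream of pnt-RD, with IDR rank 478 and replicate ranks 295, 665 and 450. In the same intron of 24337 bp the summit of IDR rank 1542 ranked 1215, 1830 and 1446 in the replicates, and the summit of IDR rank 2188 ranked 3390, 2389 and 2737. The summit of IDR rank 2275, also there, ranked 11596, 2172 and 1616, far lower in replicate 1 than in the others. The summit of IDR rank 2519 lay 1702 bp downstream of the start of pnt-RC and pnt-RE and ranked 3715, 3375 and 1634. The remaining 3 ranked 2904, 3055 and 3336. The first of these lay 264 bp upstream of pnt-RC and pnt-RE and ranked 1572, 4926 and 3769, and the last lay 193 bp upstream of pnt-RD and ranked 1495, 4904 and 3911. Both pnt promoter peaks were thus in the top calls of replicates 1 and 3 and below them in replicate 2, with replicate 1 highest. The summit of rank 3055 ranked 2959, 13699 and 2353 and lay within 500 bp of the TSS of lncRNA:CR46090, a noncoding gene inside pnt. That TSS is also the nearest for the summits of ranks 478 (7293 bp), 1542 (2297 bp), 2188 (2028 bp) and 2275 (1045 bp), so these summits are pnt's by lying inside it, and distance alone does not say which gene they belong to.

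The feedback inhibitor gene sty (chr3L:3401153-3424935, minus strand) had 5 summits, 3 of them outside the gene in introns of eIF5B, a translation initiation factor gene next to it. The strongest had IDR rank 731, lay 7928 bp upstream of sty-RC and ranked 1152, 705 and 858 in the replicates. The summits 13679 bp and 10242 bp upstream had IDR ranks 2780 and 3778. They ranked 8096, 2010 and 3035, and 8403, 3210 and 7340, in the replicates, so replicate 1 placed both outside its top calls. These 3 were given to sty because its TSS is nearer than that of eIF5B, and they lie inside eIF5B itself. Within intron 1 of sty the summit 1030 bp upstream of sty-RB had IDR rank 2510 and replicate ranks 1917, 3310 and 1411. The summit 559 bp upstream of sty-RB, with IDR rank 3265, had no call within 250 bp in replicates 1 and 2 and ranked 839 in replicate 3. It was the 1 summit of the 32 without a call in all 3 replicates.

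By any relation the replicates gave close numbers of members, and at a TSS they did not. Of the 10 genes, 7 had a top call by any relation in replicate 1, beside 22.0% of protein-coding genes, 8 in replicate 2, beside 22.3%, and 8 in replicate 3, beside 22.3%. The 8 genes of replicate 3 included pyr and left out htl. Within 500 bp of a TSS, replicate 1 had a top call at 6 of the 10 (bnl, spi, Egfr, pnt, aop and sty), beside 14.6% of protein-coding genes. Replicate 2 had one at 3 (bnl, spi and htl), beside 14.0%, and replicate 3 at 4 (bnl, pyr, spi and pnt), beside 14.4%. The promoters of bnl and spi were thus held by all 3 replicates. A top call in all 3 replicates, each replicate taken alone by the same relations, was found for 7 of the 10, beside 16.0%. Over all 30000 pooled calls, which include background calls, 9 of the 10 had a call within 500 bp of a TSS, beside 44.8%, and 10 of 10 had one inside, beside 35.4%, so a call of any rank says little. Of the 32 IDR summits, 17 were in the top 4187 calls of all 3 replicates, or 53.1%, beside 57.9% of all IDR summits. By replicate the share was 68.8%, 75.0% and 84.4% for members' summits in replicates 1, 2 and 3, beside 75.0%, 85.8% and 82.2% of all IDR summits. Their median IDR rank was 2392, beside 2094 for the whole list, and 14 of 32 (43.8%) were among its 2093 highest.

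Gene length bears on these counts, since a long gene can hold more summits. The median length was 23.0 kb for the 10 genes, against 2.2 kb for all protein-coding genes. All 6 members of at least 20 kb (bnl, ths, Egfr, pnt, aop and sty) had a summit by any relation, beside 56.7% of the 1020 protein-coding genes of that length. Below 20 kb, 2 of 4 members did, beside 19.6%. At least 3 summits were found at 7 of the 10, beside 2.85% of protein-coding genes, and at 6 of the 6 long members, beside 23.1% of long genes. The shorter gene among the 7, spi, reaches 3 by counting separately the summits that lie 200 bp apart. Summed over genes, the density inside was 0.86 summits per 10 kb in the members, against 0.26 in all protein-coding genes of at least 20 kb and 0.3 in all protein-coding genes. The highest among long members were pnt with 1.43 and aop with 1.35, and the lowest were ths with 0.35 and bnl with 0.47. Of the 266 protein-coding genes at least as long as pnt, 3 others had at least its density. Among those 266, the 5 closest to it were CG1677 with 1.28, Hr4 with 1.21, px with 1.18, Tlk with 1.15 and bun with 1.1 summits per 10 kb.

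**Figure D3:**
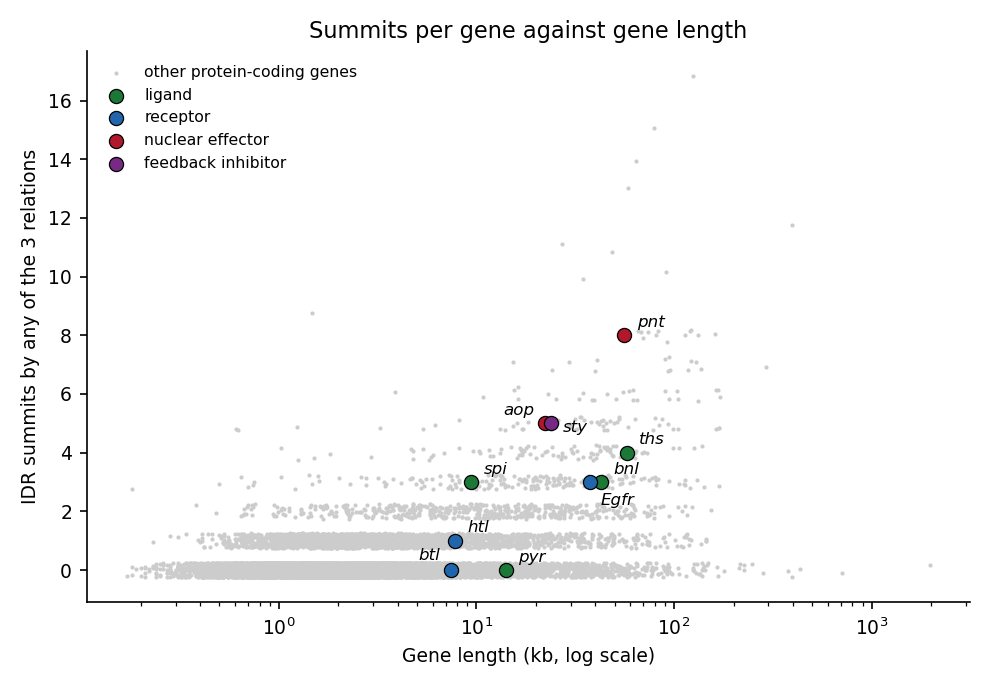
IDR summits per gene by any relation against gene length in kb (log axis) for the 10 genes, coloured by role, and all other protein-coding genes (grey, scattered vertically by up to 0.25 so that points do not overlap). The nuclear effector pnt has 8 summits and aop has 5, while htl has 1 and pyr and btl have 0.

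Rank in replicate 1 moved with base composition, in the members as in the whole list. The measure is the log2 rank in replicate 1 minus the mean log2 rank in replicates 2 and 3, so that a negative value means a higher place in replicate 1. Under 50% A+T, 5 members' summits had a call in all 3 replicates. Of these, 3 ranked best in replicate 1 (the bnl promoter and both pnt promoters) and 1 ranked worst there (aop rank 840), beside 57.3% and 12.2% of 337 such IDR summits. The summit of spi rank 1486 stood at 1.3 on this scale, with the replicate 3 call that it shares. A further low summit, sty rank 3265 with 39.6% A+T, has no value, since replicate 3 alone called it. Of the 16 members' summits with 50 to 70% A+T, 4 ranked best in replicate 1 and 7 ranked worst there, beside 35.9% and 36.6% of 2345 such IDR summits. Their values ran from -1.53 to 2.1. Of the 10 with at least 70% A+T, 0 ranked best in replicate 1 and 6 ranked worst there, beside 11.6% and 63.0% of 1404 such IDR summits. The Spearman correlation between A+T and the measure was 0.40 over 31 members' summits and 0.45 over 4086 IDR summits, given as a description, since the summits share libraries and a summit near another can share a call. The bnl promoter peak stood at -2.05 on this scale and the pnt promoter peaks at -1.46 (rank 2904) and -1.55 (rank 3336), and the htl promoter peak, with 67.3% A+T, stood at 2.10. Other summits stood below 0 at a higher A+T share. These include bnl rank 3076 (65.35% A+T) at -1.53, the Egfr promoter peak (57.43%) at -1.15 and pnt rank 3055 (71.29%) at -0.94. The part of base composition in these ranks was not tested. When IDR summits were kept only if both other replicates had them among their top calls, the members with a summit at a TSS numbered 2 without replicate 1, beside 10.6% of protein-coding genes, 3 without replicate 2, beside 9.74%, and 2 without replicate 3, beside 9.66%.

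**Figure D4:**
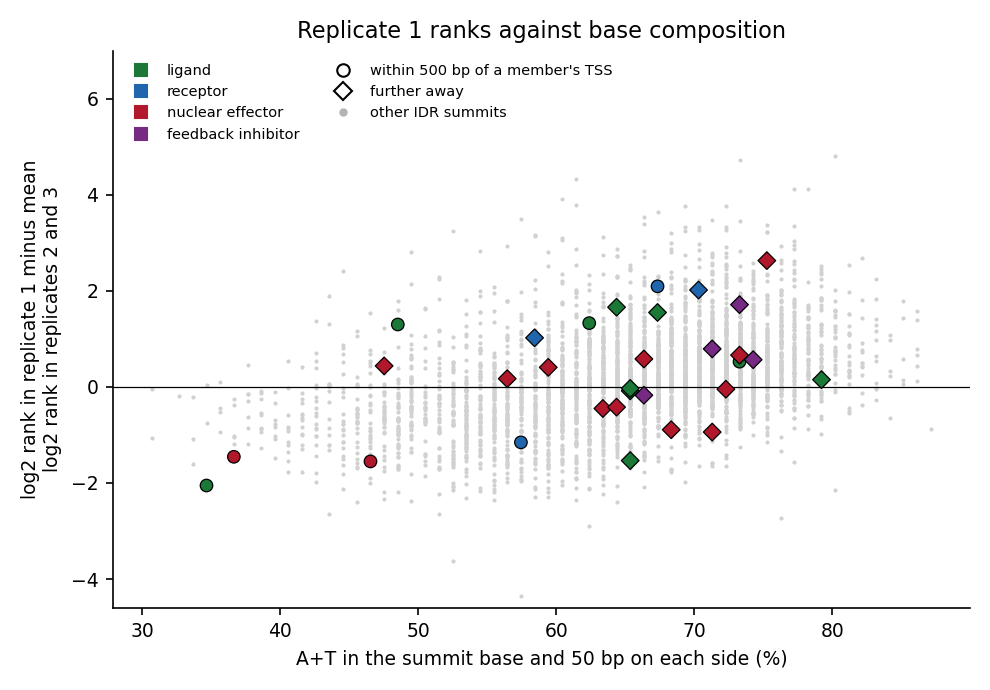
Log2 rank in replicate 1 minus the mean log2 rank in replicates 2 and 3, against the A+T percent of the summit base and 50 bp on each side, for 31 members' summits (circles within 500 bp of the gene's TSS, diamonds further away, colours by role) and the other IDR summits (grey). Of the 5 plotted members' summits under 50% A+T, the promoter peaks of bnl and pnt lie between -2.05 and -1.46, while aop rank 840 at 0.44 and spi rank 1486 at 1.3 lie above 0.

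Of 11 motifs searched on both strands in the same windows, the members' summits held GAGAG, the core letters of GAGA factor sites, in 7 of 32 windows, or 21.9%, beside 12% of all IDR summits (501 of 4187) and 12.7% of windows at all TSS. The windows were aop ranks 1194 and 1608, bnl 2002, ths 2745, pnt 2904 and 3336, and sty 3265. The repeat CACACA was in 5 windows, or 15.6%, beside 8.77% and 8.46%, and 3 of the 5 also hold the preceding motif (pnt 2904, pnt 3336 and sty 3265). With 100 bp on each side the count of the first was 10 of 32, or 31.2%, beside 25.4% and 25.0%, and of the second 5 of 32, or 15.6%, beside 18.4% and 16.1%. The E-box letters CANNTG were in 11 windows, or 34.4%, beside 36.6% and 43.7%. The run AAAAAA was in 7 windows, or 21.9%, beside 21.8% and 17.9%. The letters ATTTAA were also in 7 windows, or 21.9%, beside 25.7% and 11.6%. The letters CGATA were in 3, or 9.38%, beside 12.8% and 23.6%. The letters CAGGTA were in 1 window, beside 1.98% of all IDR summits. The letters CAGGAA, which hold the GGA core of ETS sites, were in 1, at aop rank 1608, beside 3.01%, and CCGGAA, another ETS form, was in 0, beside 3.08%. The longer TATCGATA was in 0, beside 0.788%, and GGTCACAC was in 0, beside 0.573%. A match is a stretch of letters in these windows and no evidence of a bound site.

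Of 53 further genes of these pathways and of other receptor tyrosine kinases, 16 had an IDR summit within 500 bp of a TSS (30.2%, beside 14.3% of protein-coding genes) and 31 had one by any relation (58.5%, beside 22.3%). The other receptor tyrosine kinases number 5 of the 53 and include InR, so these are not shares of FGF and EGF receptor pathway genes alone. The median length of the 53 genes was 13.3 kb. Of the 20 that are at least 20 kb long, 15 had a summit by any relation, and of the 33 shorter ones 16 did, beside 56.7% and 19.6% of protein-coding genes of those lengths. The highest promoter peak was at gro, the Groucho corepressor, with IDR rank 186 and replicate ranks 159, 241 and 175. Shc, an adaptor that binds activated receptors, followed with IDR rank 234 and replicate ranks 231, 387 and 127, at a promoter within 500 bp of a TSS of Atat. The MAP kinase phosphatase gene Mkp3 ranked 742, with replicate ranks 1051, 579 and 1028. The heparan sulfate sulfotransferase gene Hs2st ranked 1370 and shares its promoter window with RanGAP. The FGF receptor adaptor gene stumps ranked 1378, with replicate ranks 7405, 951 and 2245, low in replicate 1. The ETS regulator gene edl ranked 1484, and the secreted Egfr inhibitor gene aos ranked 1823. Further down were the Egfr ligand gene Krn at 1951, the heparan sulfate polymerase gene sotv at 2198 and the insulin receptor gene InR at 2267. The glypican gene dlp ranked 2850 and the Ras gene Ras85D ranked 3049. In replicate 1, aos ranked 5884, Krn 4377, sotv 5917 and Ras85D 10785, all outside its top calls. In replicate 3, dlp ranked 4292, also outside the top calls. The Ras85D peak had no call in replicate 3 and lay within 500 bp of a TSS of Rlb1, and the Krn and dlp peaks also lay within 500 bp of TSS of other genes, CG7484 and Ndfip, and RecQ5. By role, a promoter peak was found at 4 of 10 heparan sulfate and coreceptor genes, 3 of 14 adaptor and cascade genes, 2 of 7 cascade inhibitors, 2 of 5 ligand processing genes, 2 of 5 nuclear factors, 1 of 3 Egfr ligands, 1 of 4 extracellular or membrane inhibitors and 1 of 5 other receptor tyrosine kinases. No summit by any relation was given to the MAP kinase gene rl, the MAP kinase kinase gene Dsor1 or the exchange factor gene Sos.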

How the data were processed

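ChIP-seq peak lists of 3 replicates and, for the whole series, a pooled list of 30000 calls and an IDR list of 4187 were used as the authors deposited them, in dm6 coordinates per the labels. The signal value of each call, deposited by the authors without a stated normalization, was used to rank calls within a list. A deposited −log10 significance value was used to break ties. For the aligner, the peak caller and the threshold of the IDR step, nothing is given in the sources used here, and the depth of each library is unknown. The summit is the start plus the deposited offset.

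Genes came from Ensembl BDGP6.54 and sequence from the RefSeq genome, on 7 chromosomes. A replicate's call was matched to a summit when nearest and within 250 bp, and top calls are the 4187 highest of a list. The scripts were tested on simulated positions. Computation used Python 3.11.15, numpy 2.4.6, pandas 2.3.3, scipy 1.17.1 and matplotlib 3.10.9.

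The 10 genes, the lists and the motifs were chosen with earlier results of these data known. The rule for naming took all 10 genes, up to 5 IDR summits each by signal with the rest as counts, other genes with a TSS within 500 bp of these summits, the 12 highest promoter peaks of the wider list and the 5 genes closest to pnt in density. The remaining pnt summits, CG13192, lncRNA:CR44725, eIF5B, rl, Dsor1, Sos, Raf, S, RasGAP1 and cic were named after their values were seen. Of 54 listed pathway genes 53 were matched, 2 by an older symbol, and lrig was not.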

Additional observations from a re-analysis of the deposited data

How the results depend on the processing

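The raw counts changed with the number of peaks kept and with the replicate, and were the same with Ensembl and RefSeq genes. A shorter or longer list lowers or raises such counts by itself, and the RefSeq alternative used the same calls. These alternatives therefore do not rank what the counts depend on. The count at a TSS also rests on which TSS of a gene are used. Among the 2093 IDR peaks of highest signal, 2 members had a summit at a TSS, beside 7.84% of protein-coding genes, 5 inside, beside 7.14%, and 5 nearest, beside 10.2%, with 14 summits, 8 wider pathway genes at a TSS and 0.359 summits per 10 kb. With the 8374 highest pooled calls, 7 members had a summit at a TSS, beside 24.1% of protein-coding genes, 9 inside, beside 18.3%, and 9 by any relation, beside 34.1%. Those calls gave 56 summits at the members, 30 wider pathway genes at a TSS and 1.687 summits per 10 kb. For the alternative lists no density over other genes is given. The member densities here therefore cannot be set beside the background density of the full IDR list. Counts of wider pathway genes here are out of 53. With the top calls of replicate 2 alone, 3 members had a summit at a TSS, beside 14.0%, and with the most 5′ TSS alone, 2 did, beside 12%. Each replicate was also left out in turn, keeping IDR summits that were among the top calls of both other replicates. This gave 2 to 3 members at a TSS, beside 9.66% to 10.6% of protein-coding genes, and 6 to 7 inside, beside 8.73% to 9.42%. It gave 6 nearest, beside 12.6% to 13.7%, and 6 to 7 by any relation, beside 16.2% to 17.6%. There were 17 to 22 summits, 7 to 11 wider pathway genes at a TSS and 0.467 to 0.61 summits per 10 kb. Of the 31 summits with a call in every replicate, 17 had a top call in each, a comparison chosen after seeing the data. Of these results under the alternatives run, 67 stayed within 1.5 times the main value and 21 did not, and for single genes and motifs 76 did and 35 did not. All those run with RefSeq genes, with 250 or 1000 bp at the TSS and with peak intervals in place of summits stayed within it. No paired analysis was possible because there is 1 group. Library depth, an untagged control and the cell of origin limit what these lists show.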

Other observations

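Outside the 10 genes, the kinase gene Raf of the same cascade, named after its values were seen, held 11 IDR summits within its 48.4 kb, the best with rank 58 and none within 500 bp of a TSS. The secreted inhibitor gene aos had 3 summits, the best with rank 111, and the ligand trafficking gene S, also called Star, had 4, the best with rank 291. The Ras GTPase activating protein gene RasGAP1 had 6, the best with rank 210, and the repressor gene cic had 5, the best with rank 489. S, RasGAP1 and cic were also named after their values were seen. Other wider pathway genes had better best ranks than cic, among them edl with 238 and dlp with 347. At least 3 summits were found at 13 of the 53 wider pathway genes, beside 2.85% of protein-coding genes and 23.1% of those of at least 20 kb.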
